A study of Mus musculus with 29 samples.

Results

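Bdh1, Oxct1 and Acat1 encode the mitochondrial enzymes that carry ketone bodies into the citric acid cycle. They were taken by gene symbol from the 29955 genes of the mouse expression table, each symbol matched a single row, and all 3 were among the 12759 genes tested. The values are FPKM, the fragments assigned to a gene scaled by the length of its transcript and by the size of the library.

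Ketone bodies are made in the liver during fasting and are oxidised by the heart beside fatty acids and glucose. In heart mitochondria, beta-hydroxybutyrate is oxidised to acetoacetate by the Bdh1 enzyme, acetoacetate takes its coenzyme A from succinyl-CoA through the Oxct1 enzyme (also called SCOT), and acetoacetyl-CoA is split into acetyl-CoA by the thiolase encoded by Acat1. The Acat1 enzyme also works in isoleucine breakdown and, in the liver, at the first step of ketone synthesis.

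The mice were of the strain labelled C57BL6 (C57BL/6J in the methods), male and 3 months old at the start, and the tissue is labelled as whole heart and whole ventricle while the methods name the frozen apical portion. HF (heart failure) was induced over 5 weeks with 0.3 mg/ml L-NAME, an inhibitor of nitric oxide synthesis, and 1% NaCl in the drinking water and, after the first week, a pump that delivered 0.7 mg/kg of angiotensin II per day for 28 days. HF week 3 hearts (2 libraries) were taken during this course and HF week 5 hearts (3 libraries) at its end. Recovery mice had the same induction and then no treatment until week 7 (2 libraries), 9 (2 libraries, where 3 samples are labelled), 11 (3 libraries), 13 (2 libraries) or 19 (5 libraries), which the labels count as 2, 4, 6, 8 and 14 weeks of recovery. Control week 19 (5 libraries) was untreated. The week 5 controls were not used here, so the comparison of HF week 5 with Control week 19 spans a difference in age as well as in treatment, and with these groups the 2 cannot be told apart. The same limit holds for every other comparison between groups of different weeks.

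Library sizes are unknown from FPKM, but the steps between low values gave a relative depth of 0.722 to 1.39 in 23 of the 24 libraries. HF week 3 library 1 showed no usable steps; 12816 of its genes were above 0, where the other libraries had 16339 to 18091. The atrial genes Myl7, Sln and Myl4 stood apart in 4 of the 5 HF libraries. Their summed level was 7737 and 14050 FPKM in HF week 3 and 39727, 415 and 15.5 FPKM in libraries 1, 2 and 3 of HF week 5, against 3.04 to 13.4 FPKM in the 19 recovery and control libraries. All 3 genes of this marker list were called higher at HF week 5 when set against controls, beside 11.6% of all genes. The same 4 libraries held 11.9 to 33.6 FPKM of the fat cell markers Adipoq, Plin1 and Cidec, against 0 to 0.563 FPKM in all others, HF week 5 library 3 included. Of the 10 cardiomyocyte markers, Myh6, Actc1, Myl2 and Mb are listed at 0 in every library of at least 1 group, and the other 6 summed to 20991 to 34534 FPKM over all libraries. This sum was 24588 and 21603 FPKM in HF week 3 and 21694, 32293 and 27768 FPKM in HF week 5, against 25854 to 32351 FPKM in controls. Below every control were both HF week 3 libraries, HF week 5 library 1, Recovery week 7 library 1, Recovery week 11 library 2 and libraries 1, 2 and 4 of Recovery week 19, the lowest sum being that of Recovery week 19 library 1. In whole tissue, fewer cells of a type and less RNA per cell cannot be told apart.

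Because all 3 genes were lower in the HF groups, the 250 bases before their start sites were read from RefSeq (GRCm38.p6, a later build than that of the expression table), all on the plus strand. The table holds 3 such windows for 2 of the 3 genes. They are Oxct1 at chr15:4026178-4026427, and Bdh1 at chr16:31422047-31422296 for its first start and chr16:31428503-31428752 for its second. Acat1 was not matched. Capitals mark GGTCA on the printed strand or, as its reverse complement TGACC, on the other.

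Oxct1: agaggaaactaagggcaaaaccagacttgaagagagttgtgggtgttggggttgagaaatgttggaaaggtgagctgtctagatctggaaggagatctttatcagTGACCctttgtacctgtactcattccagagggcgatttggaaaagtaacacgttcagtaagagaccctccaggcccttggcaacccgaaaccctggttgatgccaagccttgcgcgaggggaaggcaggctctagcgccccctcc
Bdh1, first start: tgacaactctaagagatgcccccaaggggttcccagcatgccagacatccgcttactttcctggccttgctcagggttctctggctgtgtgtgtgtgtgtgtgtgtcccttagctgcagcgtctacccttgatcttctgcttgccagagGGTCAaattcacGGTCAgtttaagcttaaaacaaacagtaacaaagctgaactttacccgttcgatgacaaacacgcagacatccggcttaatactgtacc
Bdh1, second start: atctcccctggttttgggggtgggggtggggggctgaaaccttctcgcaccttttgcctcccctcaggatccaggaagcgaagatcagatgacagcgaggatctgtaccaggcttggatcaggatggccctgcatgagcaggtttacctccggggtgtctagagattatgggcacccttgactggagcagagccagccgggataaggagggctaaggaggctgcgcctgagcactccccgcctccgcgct
GGTCA is the common core of the sites that nuclear receptors such as Ppara and Esrra bind. It occurred once in the Oxct1 window, 145 bases before the start on the opposite strand, and at 101 and 89 bases before the first Bdh1 start. No match lay in the window of the second Bdh1 start. On both strands, GGTCA was found in 35.2% of all 32851 such windows. The longer AGGTCA and AAGGTCA, which contain it, were found in 14.0% and 4.08% of all windows and in none of these 3. The GC content was 52.0% for Oxct1 and 49.6% and 60.8% for the Bdh1 starts, against a median of 52.4% over all windows.

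In control hearts all 3 genes were strongly expressed. Per unit of transcript length, Oxct1 was the highest (237 ± 5.97 FPKM, SD, n = 5), Acat1 was next (138 ± 7.31 FPKM) and Bdh1 was the lowest (59.1 ± 10.3 FPKM), and no library of one gene overlapped those of another. Of the genes tested, 96.8% had a lower control mean than Oxct1, 95.2% a lower one than Acat1 and 90.4% a lower one than Bdh1. Bdh1 varied most between control hearts, with a coefficient of variation of 17.4% against 5.29% for Acat1 and 2.51% for Oxct1.

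The first comparison asked how the failing heart at week 5 differed from untreated hearts. All 3 genes were lower in HF week 5, at 60.4% of the control mean for Bdh1, 68.6% for Oxct1 and 54.7% for Acat1. By limma with Benjamini-Hochberg adjustment over all genes tested, 12.4% of genes were called lower in this comparison at an adjusted p under 0.05, and the 3 genes were among them. HF week 5 library 1 was the lowest of its group for each gene, and the sizes for Bdh1 and Oxct1 depend on it. The share of all genes whose libraries did not overlap between groups was not counted, here or in the comparisons below.

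Bdh1, the dehydrogenase that opens the oxidation of beta-hydroxybutyrate, was at 15.1, 43.8 and 48.3 FPKM in HF week 5 libraries 1 to 3. The controls were at 65.3, 52.6, 74.1, 54.5 and 49.2 FPKM. The groups did not overlap, but HF week 5 library 3 lay at 98.2% of the lowest control. The difference was -0.87 (SE 0.283) in log2(FPKM + 0.5), with an adjusted p of 0.0318 by limma. Without library 1 the difference was -0.34 and the adjusted p 0.345, while 6.45% of genes were still called lower. Leaving out control library 1 or control library 3 also took the adjusted p of Bdh1 above the threshold, to 0.0632 and 0.0752.

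Oxct1, the transferase that commits acetoacetate to oxidation and that liver cells lack, was at 94.1, 202 and 192 FPKM in HF week 5. The control libraries were at 237, 230, 237, 247 and 236 FPKM. Every HF library was below every control, with library 1 at 40.9% of the lowest control and the other 2 at 87.9% and 83.6%. The log2 difference was -0.62 (SE 0.175; limma adjusted p = 0.0148). This SE rests on a spread shared by all groups, while the SD of Oxct1 was 59.7 FPKM in HF week 5 and 5.97 FPKM in controls. Without library 1 the difference was -0.27, with a limma adjusted p of 0.141.

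Acat1, the thiolase of the last step, was at 55.6, 89.4 and 81.6 FPKM in HF week 5. The controls were at 141, 131, 138, 149 and 132 FPKM. The groups were far apart, since the highest HF library lay at 68.0% of the lowest control. The log2 difference was -0.89 (SE 0.163; limma adjusted p = 0.000896). Leaving out any library kept the call, with the weakest value of -0.69 and an adjusted p of 0.0117 without HF week 5 library 1.

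**Figure D1:**
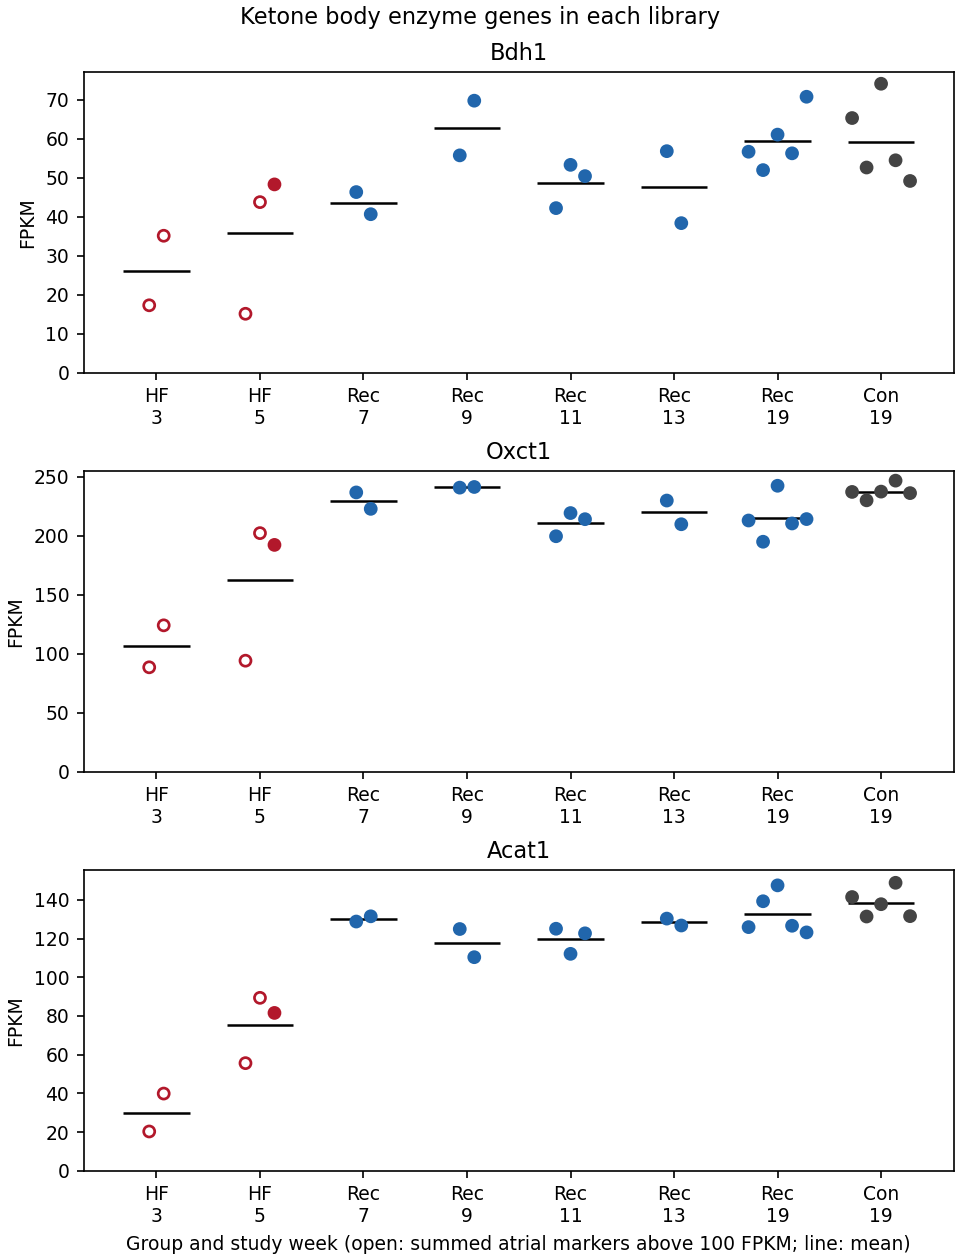
FPKM of Bdh1, Oxct1 and Acat1 in each of the 24 libraries by group and study week, on axes that start at 0. Points are libraries, lines are group means, and open points are libraries whose summed Myl7, Sln and Myl4 exceeded 100 FPKM; the HF libraries of all 3 genes lie below the controls, with HF week 5 library 1 the lowest of its group.

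The atrial and fat cell markers moved with these falls, and their part in them was not tested. HF week 5 library 1, with the highest atrial sum of 39727 FPKM, had 25.6% of the control mean for Bdh1, 39.6% for Oxct1 and 40.3% for Acat1. Library 3, with an atrial sum of 15.5 FPKM and a fat cell sum of 0.224 FPKM, had 81.7% for Bdh1, 81.0% for Oxct1 and 59.0% for Acat1. In that library Acat1 and Oxct1 were thus well below every control, and Bdh1 was just below the lowest.

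Without the 4 libraries above 100 FPKM of atrial markers, library 3 stood alone for HF week 5 and was assumed to vary like the other groups. The log2 difference from controls was then -0.76 for Acat1 (limma adjusted p = 0.00249), -0.30 for Oxct1 (adjusted p = 0.108) and -0.27 for Bdh1 (adjusted p = 0.47), with 6.38% of genes called lower. Without the 3 libraries above 1000 FPKM the values were -0.69, -0.27 and -0.34, and Acat1 and Oxct1 were called (adjusted p = 0.000144 and 0.0394) while Bdh1 was not (adjusted p = 0.16), with 11.4% of genes called lower. Fibroblast markers (Col1a1, Col1a2, Dcn, Pdgfra, Postn and Tcf21) also summed higher in HF week 5, to 299 to 593 FPKM against 207 to 296 FPKM in controls, and 4 of the 6 were called higher, beside 11.6% of all genes. The summed endothelial markers (199 to 264 FPKM against 171 to 193 FPKM) also lay above every control. So did the summed smooth muscle and pericyte markers (110 to 180 FPKM against 79.9 to 94.5 FPKM). Of these lists, 2 of 5 (Pecam1 and Emcn) and 2 of 4 (Acta2 and Pdgfrb) were called higher. Not called were Tie1, Kdr and Cdh5, at 0.27, -0.33 and -0.03, and Myh11 and Rgs5, at 0.70 and -0.66. Of the 10 cardiomyocyte markers 1 was called lower, beside 12.4% of all genes: Pln, at -0.87 (limma adjusted p = 0.0157). The 3 called higher, Actc1, Myl2 and Mb, are listed at 0 in every control, and Tnnt2, Ryr2, Tnni3, Tnnc1 and Ttn, at -0.41 to 0.28, were not called. The part of these cell types in the falls was not tested.

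**Figure D2:**
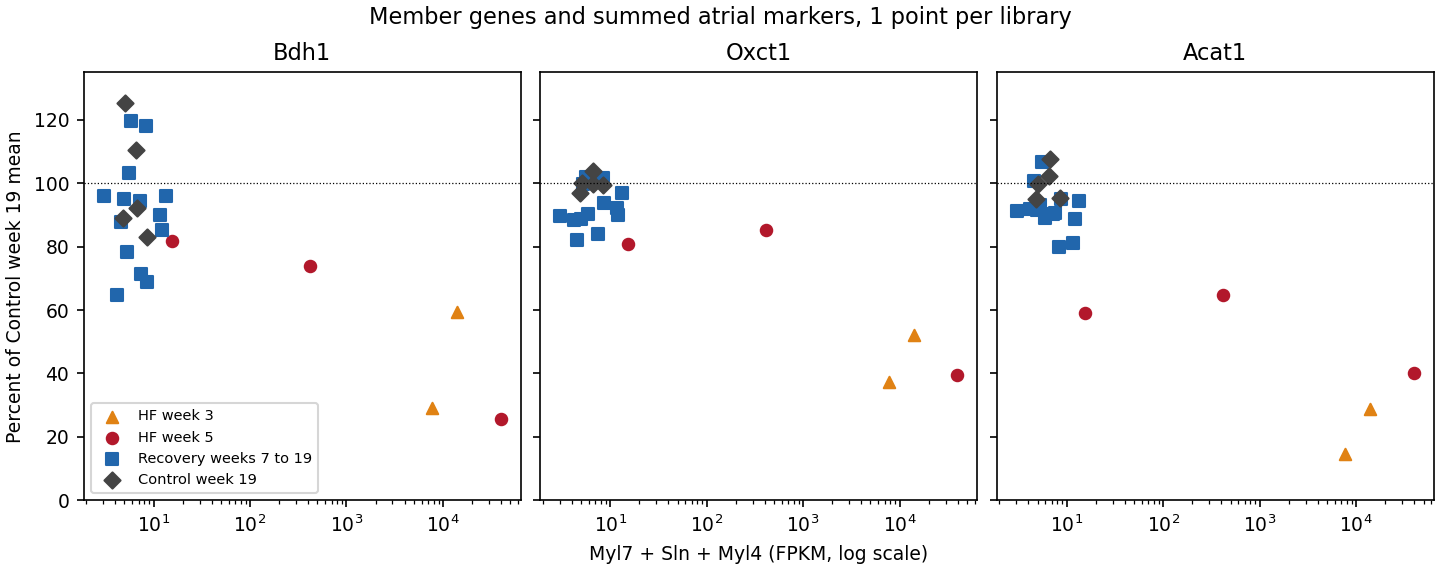
Level of each gene as a percent of the Control week 19 mean (vertical axis) against the summed FPKM of Myl7, Sln and Myl4 (horizontal axis, log scale), with 1 point per library and the dotted line at 100%. HF week 5 library 3 sits at an atrial sum of 15.5 FPKM with Acat1 at 59.0%, and the 3 libraries above 1000 FPKM hold the lowest values of each gene.

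At week 3, during induction, the 3 genes were lower than in controls by larger fitted differences than at week 5. The libraries of HF week 3 were at 17.3 and 35.1 FPKM for Bdh1, 88.5 and 124 FPKM for Oxct1 and 20.3 and 39.9 FPKM for Acat1. Each of these lay below every control, but the share of all genes that did so was not counted. Acat1 averaged 21.8% of the control mean. The log2 differences from controls were -1.23 for Bdh1 (limma adjusted p = 0.00412), -1.18 for Oxct1 (adjusted p = 0.000114) and -2.26 for Acat1 (adjusted p = 5.31e-08), in a comparison in which 27.6% of genes were called lower. Both libraries had atrial sums of 7737 FPKM or more, so that with these data the week and the atrial signal cannot be told apart. Of the 10 cardiomyocyte markers, Tnnt2, Ryr2 and Pln were called lower at week 3, at -0.76, -1.27 and -1.90 on the log2 scale. Ttn, Tnni3 and Tnnc1 were not called, at -0.43, -0.30 and 0.25, and the 4 called higher (Myh6, Actc1, Myl2 and Mb) are listed at 0 in every control. Of the 6 fibroblast markers 4 were called higher, with sums of 501 and 557 FPKM, beside 23.1% of all genes. Of the 5 endothelial markers, Pecam1, Tie1 and Emcn were called higher at 0.64, 0.63 and 1.66, Kdr was called lower at -0.82, and Cdh5 was not called at -0.50. Pdgfrb was the only smooth muscle and pericyte marker called, higher at 0.97. Of the 5 macrophage markers, C1qa was called higher at 0.78 and Cd68 lower at -1.92. The tested fat cell markers Adipoq and Cidec were called higher at 3.63 and 3.21. The part of these cell types was not tested. Without HF week 3 library 1 the values of the 3 enzymes were -0.73, -0.93 and -1.78, Bdh1 was no longer called (limma adjusted p = 0.172), and 15.6% of all genes were called lower.

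Between the HF weeks, Acat1 was higher at week 5 than at week 3 by 1.36 (SE 0.204; limma adjusted p = 0.000502), where 13.1% of genes were called higher. Bdh1 and Oxct1 differed by 0.36 and 0.55, with adjusted p of 0.463 and 0.072, and their libraries overlapped. The cardiomyocyte markers Tnnt2, Ryr2 and Pln were also called higher at week 5 than at week 3, at 0.57, 0.86 and 1.03. So was Actc1 at 0.74, while Myh6, listed at 0 in HF week 5, was called lower and the other 5 of the 10 were not called. Of the 6 fibroblast markers, Col1a1, Col1a2 and Postn were called lower at -1.58, -1.65 and -1.33, beside 8.28% of all genes. None of the endothelial, atrial or fat cell markers was called, with the 3 atrial markers at -4.31 to -3.60, and the part of these cell types in the Acat1 difference was not tested. Without HF week 3 library 1 the Acat1 difference was 0.88 with an adjusted p of 0.0203, when 0.44% of genes were called higher, and without library 2 it was 1.84, when 31.7% were. The Bdh1 difference turned to -0.14 without HF week 3 library 1 and was called at 0.88 without HF week 5 library 1 (limma adjusted p = 0.0233). Oxct1 was called without HF week 3 library 2 (0.80; adjusted p = 0.016) and without HF week 5 library 1 (0.91; adjusted p = 0.000212).

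The second comparison asked how hearts after 14 weeks without treatment differed from HF week 5. The recovery mice were also older, so age and time without treatment cannot be told apart here. Recovery week 19 was above HF week 5 for Acat1 and Bdh1, and 12.3% of genes were called higher. It shares the HF week 5 libraries with the first comparison, so the directions of these 2 comparisons are not independent. The 3 atrial markers and both tested fat cell markers were called lower in Recovery week 19, beside 12% of all genes. Of the 4 smooth muscle and pericyte markers, Acta2, Myh11 and Pdgfrb were called lower at -0.93, -0.97 and -0.40, and Rgs5 was called higher at 1.10. Postn of the fibroblast list and Emcn of the endothelial list were called lower, at -1.89 and -1.14. So was the liver cell marker Ttr at -1.12, from low means of 0.337 FPKM in Recovery week 19 and 1.21 FPKM in HF week 5. Of the 10 cardiomyocyte markers, Pln and Actc1 were called higher at 0.81 and 1.06 and Mb, listed at 0 in Recovery week 19, was called lower. The part of these cell types in the rise was not tested.

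Bdh1 was at 56.7, 52.0, 61.1, 56.3 and 70.8 FPKM in Recovery week 19. All 5 lay above the 3 HF week 5 libraries. The log2 difference was 0.88 (SE 0.283; limma adjusted p = 0.0287). It was 0.36 with an adjusted p of 0.313 without HF week 5 library 1, and 0.82 with an adjusted p of 0.0519 without Recovery week 19 library 5, the highest. Without the 4 libraries above 100 FPKM of atrial markers the Bdh1 difference was 0.29 (limma adjusted p = 0.444) and the Acat1 difference 0.69 (adjusted p = 0.00381).

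Acat1 was at 126, 139, 147, 127 and 123 FPKM, again above every HF week 5 library, and the log2 difference was 0.83 (SE 0.163; limma adjusted p = 0.00148). Oxct1 was at 213, 195, 242, 210 and 214 FPKM, and its lowest recovery library lay within the HF range. The Oxct1 difference of 0.47 (SE 0.175) missed the threshold at an adjusted p of 0.0539, with a 95% interval of 0.11 to 0.84. It was called without HF week 5 library 2 (0.67; adjusted p = 0.014) and without library 3 (0.63; adjusted p = 0.0263), and lay at 0.12 with an adjusted p of 0.535 without library 1.

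The third comparison set Recovery week 19 against Control week 19, of the same age, in which 0.0235% of genes were called in either direction. Recovery means were 100.4% of the control mean for Bdh1, 90.5% for Oxct1 and 95.9% for Acat1, and the libraries overlapped for each gene. Of the 5 recovery libraries, 4 lay below the lowest control for Oxct1 and 3 for Acat1. The log2 differences were 0.01 (95% interval -0.50 to 0.52), -0.15 (-0.46 to 0.17) and -0.06 (-0.36 to 0.23), each with a limma adjusted p of 1. At an unadjusted p under 0.05 none of the 3 was called either, the smallest p being 0.345 for Oxct1. These intervals leave room for a deficit of 0.50, 0.46 and 0.36 on the log2 scale.

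In the earlier recovery weeks none of the 3 genes was called different from controls. At week 7, Bdh1 was at 46.3 and 40.7 FPKM, both below the lowest control. Oxct1 was at 237 and 223 FPKM and Acat1 at 129 and 131 FPKM, close to or within their control ranges. At week 7 Bdh1 thus averaged 73.5% of the control mean against 96.7% for Oxct1 and 94.2% for Acat1, and the Bdh1 difference from controls was -0.43 (95% interval -1.10 to 0.25; limma adjusted p = 1).

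Against HF week 5, Acat1 was higher at week 7 by 0.81 (limma adjusted p = 0.0133), while Bdh1 and Oxct1 differed by 0.44 and 0.57 with adjusted p of 0.425 and 0.082. In this comparison 8.05% of genes were called higher and 6.75% lower. The 3 atrial markers were called lower at week 7, at -7.45 to -5.39, as were both tested fat cell markers, at -3.13 and -3.08. Pecam1 and Emcn of the 5 endothelial markers, Acta2 of the 4 smooth muscle and pericyte markers, C1qa of the 5 macrophage markers and Postn of the 6 fibroblast markers were also called lower, at -1.92 to -0.75. Of the cardiomyocyte markers, Actc1 was called higher at 0.92, as was Myh6, which is listed at 0 in HF week 5. The part of these cell types in the Acat1 rise was not tested. The Acat1 call was lost without HF week 5 library 1 (0.61; adjusted p = 0.0675), when 4.1% of genes were called higher. It was also lost without library 1 or library 2 of week 7 (0.82 and 0.79; adjusted p = 0.0818 and 0.102), when 2.48% and 1.83% were. The Bdh1 difference turned to -0.08 without HF week 5 library 1.

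At week 9, Bdh1 was at 55.7 and 69.8 FPKM, Oxct1 at 241 FPKM in both libraries and Acat1 at 125 and 110 FPKM. At week 11, Bdh1 was at 42.2, 53.3 and 50.4 FPKM, Oxct1 at 200, 219 and 214 FPKM and Acat1 at 125, 112 and 123 FPKM. At week 13, Bdh1 was at 56.8 and 38.4 FPKM, Oxct1 at 230 and 210 FPKM and Acat1 at 130 and 127 FPKM. Acat1 lay below its lowest control in each of these libraries and in 1 of the 2 of week 7, and Oxct1 lay below its lowest control in each library of weeks 11 and 13. No such difference was called.

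The share of all genes called different from controls was 0.047% at week 7, 0.0549% at week 9, 0.149% at week 11 and 0.0784% at week 13. The limma differences of the 3 genes from controls in weeks 9 to 13 ranged from -0.32 (Bdh1, week 13) to 0.09 (Bdh1, week 9). With 2 or 3 libraries in these groups the error was wide, with an SE of 0.324 for Bdh1 at week 13. In weeks 7 to 13 the 10 highest genes took 27.9% to 37.4% of the summed FPKM, against 14.6% to 18.8% in weeks 5 and 19. In HF week 3 they took 19.8% and 37.5%. Myh6 had group means of 124860 to 278970 FPKM in weeks 7 to 13 and 169670 FPKM in HF week 3. At week 19, with or without induction, and in HF week 5 it is listed at 0, so these shares do not rest on the same listed genes. The part of this difference in the levels of the 3 enzymes was not tested.

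**Figure D3:**
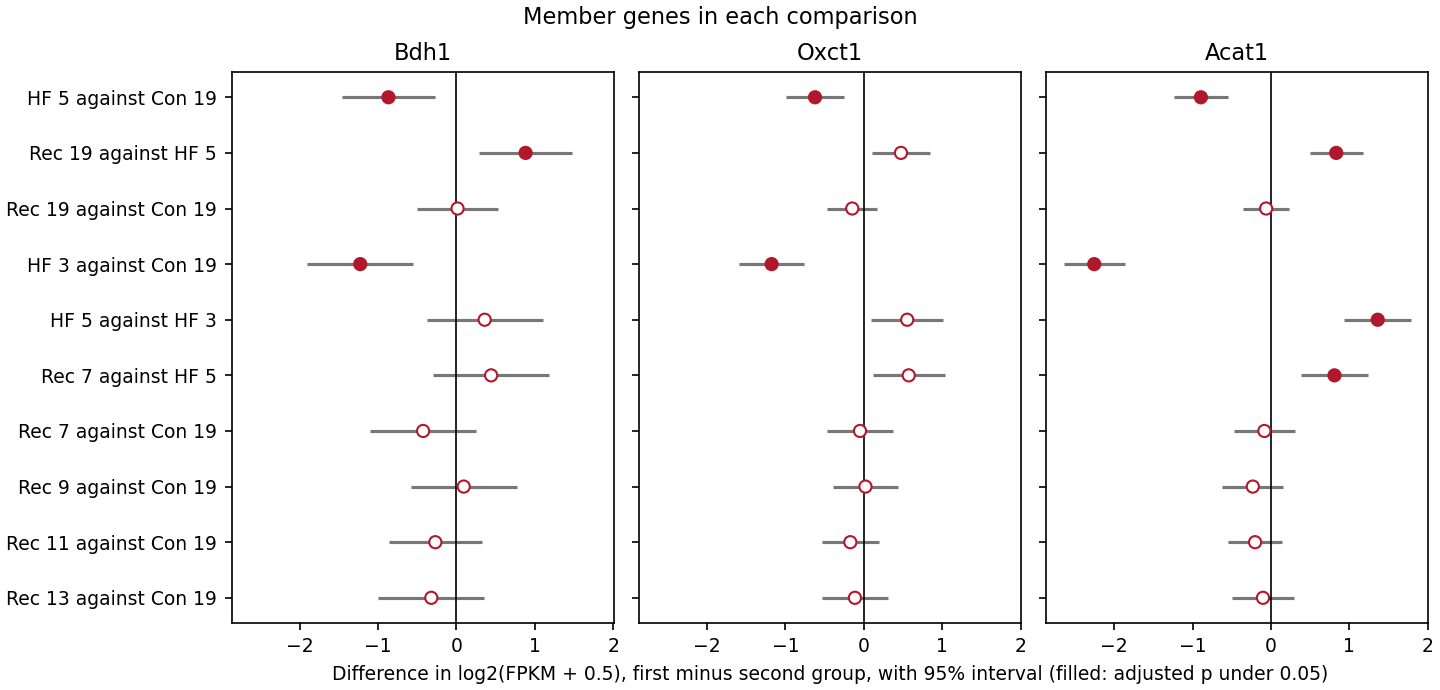
Difference in log2(FPKM + 0.5) between the first and the second group of each comparison for Bdh1, Oxct1 and Acat1, with 95% intervals from limma; filled points have an adjusted p under 0.05. Acat1 is filled in all 5 comparisons that hold an HF group, Bdh1 in 3 and Oxct1 in 2, and no gene is filled between recovery and control.

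Ratios taken within a library do not depend on its scaling, and compare the 3 genes with each other. The Oxct1 to Acat1 ratio was narrow in controls, at 1.66 to 1.79 in FPKM. It was 1.69, 2.26 and 2.36 in HF week 5 and 4.35 and 3.11 in HF week 3. Libraries 2 and 3 of HF week 5 and both of week 3 were thus above every control, while HF week 5 library 1 was within the control range. Recovery libraries above every control were week 7 library 1 (1.84), both of week 9 (1.93 and 2.19) and week 11 library 2 (1.96). On the log2 scale the mean ratio was 1.05 ± 0.26 (SD) in HF week 5 and 0.78 ± 0.05 in controls, a difference of 0.27 (two-sided exact permutation p = 0.143; 0.339 after adjustment over the 9 tests of ratios). Without HF week 5 library 1 it was 0.42.

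The Bdh1 to Oxct1 ratio was 0.161, 0.216 and 0.251 in HF week 5 and 0.252 to 0.331 in Recovery week 19. Controls were at 0.208 to 0.312 and overlapped both groups. HF week 5 differed from controls by -0.25 on the log2 scale (two-sided exact permutation p = 0.286). The recovery libraries were higher than those of HF week 5 by 0.41. They did not overlap, but the nearest were at 0.252 and 0.251. The two-sided exact permutation p of 0.0357 is the smallest that 3 against 5 libraries allow. After adjustment over the 9 tests it was 0.321, and without HF week 5 library 1 the difference was 0.24. The Bdh1 to Acat1 ratio did not separate HF week 5 from controls, with a difference of 0.03 (exact permutation p = 1) that ranged from -0.20 to 0.35 when 1 library was left out. In HF week 3 it was 0.851 and 0.88 in the 2 libraries, a comparison that was not among the tests.

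**Figure D4:**
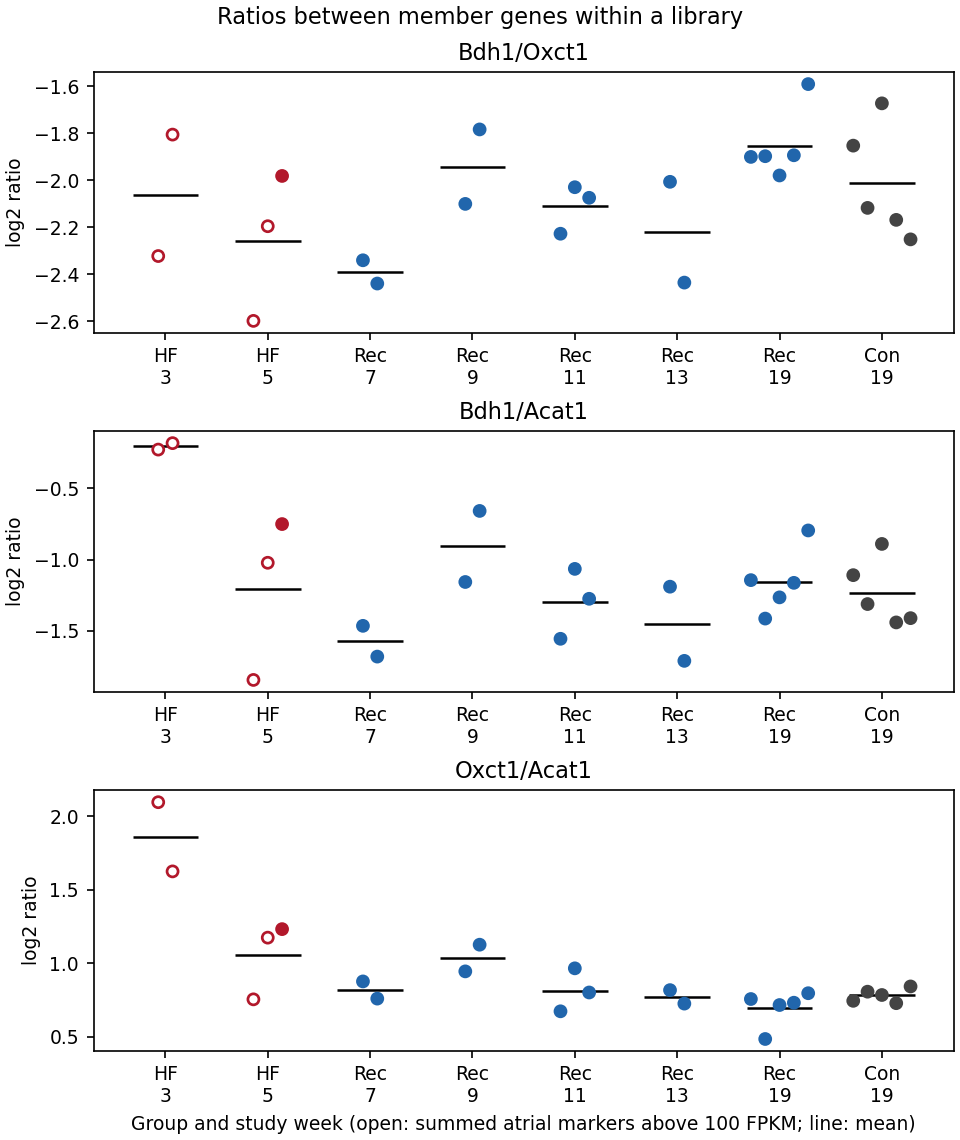
log2 of the ratio between 2 of the genes within each library, by group and study week; points are libraries, lines are group means and open points are libraries above 100 FPKM of atrial markers. Oxct1/Acat1 is tight in Control week 19 and higher in 4 of the 5 HF libraries and in 4 recovery libraries. The Recovery week 19 points of Bdh1/Oxct1 lie above those of HF week 5, and the control points overlap both.

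The genes whose log2 levels followed each member most closely over the 24 libraries were named by the highest Pearson r. For Acat1 these were Pdha1 (0.994), of the pyruvate dehydrogenase complex, Suclg2 (0.993), of succinyl-CoA ligase, Ghitm (0.99), Etfdh (0.987), which passes electrons from fatty acid oxidation to ubiquinone, and Hadh (0.986), of fatty acid oxidation. For Oxct1 they were Pln (0.967), the phospholamban that restrains the calcium pump, Abcb4 (0.96), Gm5057 (0.957), Hibch (0.957), of valine breakdown, and Bckdha (0.956), of branched-chain keto acid oxidation. For Bdh1 they were Bri3bp (0.912), Asb2 (0.91), Oxct1 (0.898), Magix (0.896) and Plin3 (0.896). All 24 libraries enter, the 5 HF libraries included. For the pairs of member genes, r over the 19 libraries without HF was 0.403 between Bdh1 and Oxct1, 0.252 between Oxct1 and Acat1 and 0.0365 between Bdh1 and Acat1.

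Around the 3 enzymes, 23 other genes of ketone synthesis, transport, cytosolic use, succinyl-CoA supply and regulation were listed, and 17 of them were tested. In HF week 5 against controls 8 of the 17 were called lower, beside 12.4% of all genes, and 1 was called higher, beside 11.6%. The median log2 difference of the 17 was -0.47, against 0.04 over all genes tested. The remaining 6 were not tested: Hmgcs1, Oxct2a and Oxct2b are listed at 0 in every library, and Hmgcll1, Hcar2 (listed as Niacr1) and Ffar3 had means below 0.5 FPKM.

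Succinyl-CoA is the donor that the Oxct1 enzyme uses, and 4 of the 5 genes of its supply were called lower in HF week 5, beside 12.4% of all genes. Suclg2, a subunit of succinyl-CoA ligase, was at 20.1, 38.9 and 38.1 FPKM in HF week 5 and between 54.9 and 72.6 FPKM in controls, a log2 difference of -1.06 (limma adjusted p = 0.00221). Ogdh and Dlst, of the 2-oxoglutarate dehydrogenase complex that makes succinyl-CoA, differed by -0.97 (adjusted p = 0.0018) and -0.88 (adjusted p = 0.00149), and Sucla2 by -0.75 (adjusted p = 0.00442). All 4 were also called lower without HF week 5 library 1, Sucla2 at an adjusted p of 0.04997. Suclg1 differed by -0.39 with an adjusted p of 0.141.

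All 4 regulators were called lower, beside the same 12.4%. Ppara, the receptor that turns on fatty acid and ketone genes in fasting, was at 1.64, 2.60 and 2.23 FPKM in HF week 5 and between 4.56 and 8.21 FPKM in controls. Its log2 difference was -1.48 (SE 0.194; limma adjusted p = 7.8e-05). Esrra, a receptor for mitochondrial genes, differed by -0.71 (adjusted p = 0.00145) and Sirt3, a mitochondrial deacetylase, by -0.58 (adjusted p = 0.00912). Ppargc1a, the coactivator of both receptors, differed by -0.93 (adjusted p = 0.0393), and was called in 11 of 19 alternatives. The calls of Ppargc1a and Sirt3 were lost without HF week 5 library 1 (limma adjusted p = 0.0884 and 0.0968). That of Ppargc1a was also lost without library 3 (adjusted p = 0.181) and without control library 2, 4 or 5 (adjusted p = 0.0508, 0.0745 and 0.0781). Over the 19 alternatives the difference ranged from -1.40 to -0.69 for Ppargc1a and from -0.72 to -0.41 for Sirt3.

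None of the 5 tested transport genes was called. Slc16a1, the monocarboxylate transporter MCT1 that takes ketone bodies into heart muscle, was at 15.4, 31.4 and 28.4 FPKM in HF week 5 and between 31.7 and 35.4 FPKM in controls. These did not overlap, and the difference of -0.47 missed the threshold at a limma adjusted p of 0.0517; it was called without HF week 5 library 2 (-0.66; adjusted p = 0.0131) or library 3 (-0.59; adjusted p = 0.0387), and lay at -0.16 without library 1. Its partner basigin, Bsg, differed by -0.34 with an adjusted p of 0.233.

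The gene called higher was Bdh2, a cytosolic dehydrogenase that differs from Bdh1 in cell compartment. It was low throughout, at 4.11, 1.03 and 1.49 FPKM in HF week 5 against 0.111 to 0.593 FPKM in controls. The groups did not overlap, and the log2 difference of 1.74 (limma adjusted p = 0.000707) was kept without library 1 (1.27; adjusted p = 0.00864). Aacs and Acat2, which use acetoacetate and acetyl-CoA in the cytosol, differed by 0.22 and 0.15 and were not called.

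In Recovery week 19 against HF week 5, 8 of the 17 were called higher, and the 12.3% of all genes stands beside this. Bdh2 was called lower by 1.04 (limma adjusted p = 0.0195), where 12% of all genes were called lower. This call was lost without HF week 5 library 1 (-0.57; adjusted p = 0.204). The count of 8 fell to 5 without that library, when 6.9% of all genes were called higher. Between Recovery week 19 and Control week 19 none of the 17 was called, beside 0.0235% of all genes. Bdh2 still averaged 0.688 FPKM in Recovery week 19 against 0.241 FPKM in controls. Its log2 difference was 0.70 (95% interval 0.14 to 1.26), and the libraries overlapped. In HF week 3 against controls 10 of the 17 were called lower, beside the 27.6% of all genes, and Aacs (1.36) and Bdh2 (1.51) were called higher, beside 23.1%. Aacs was not called without HF week 3 library 1 (0.43; limma adjusted p = 0.124).

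**Figure D5:**
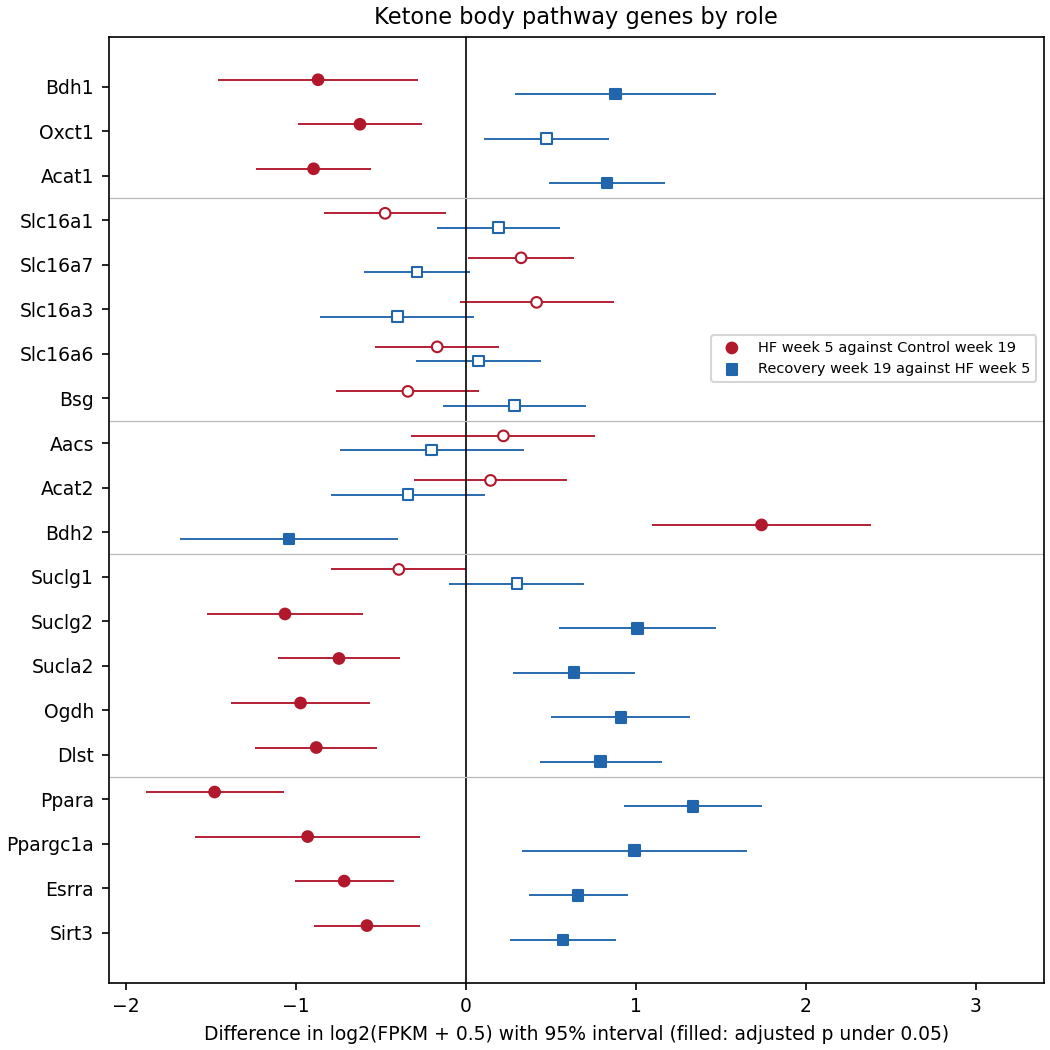
Difference in log2(FPKM + 0.5), with 95% limma intervals, of the 3 enzymes and the 17 other tested pathway genes, set apart by role, in HF week 5 against Control week 19 (circles) and Recovery week 19 against HF week 5 (squares). Filled points have an adjusted p under 0.05; succinyl-CoA supply genes and regulators lie to the left in HF and to the right in recovery, and Bdh2 does the opposite.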

How the data were processed

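Per the labels and the methods, paired-end reads of poly(A) RNA were aligned by the authors with TopHat2 to mm9, and Cuffdiff gave the deposited FPKM, one column per library; the annotation and scaling are not given in the sources used here. Columns were mapped to groups by name, with library numbers that only name them; 5 columns named for week 5 controls were not used, since the labels list 4 such samples, while the 2 of Recovery week 9, with 3 labelled samples, were kept. Genes averaging at least 0.5 FPKM over 24 libraries were fitted with limma 3.58.1 (R 4.3.3) on log2(FPKM + 0.5), one mean per group (16 residual degrees of freedom), trended variance, two-sided, with Benjamini-Hochberg adjustment over 12759 genes. This scale understates changes of low genes. P-values measure only the spread between these libraries. In simulated HF week 5 against Control week 19 data, 100 genes were lowered by 1 and 100 by 2 on the log2 scale. Of these, 78% and 96% were called. The simulation gave each gene the same spread in every group, left the lowest genes unchanged and changed fewer genes than were called here. Its rates are therefore not the sensitivity of the real comparison. Ratios were compared by exact permutation tests. The named genes are the 3 enzymes, listed pathway genes and the 5 most alike genes of each enzyme; some listed genes are not reported here. Members and lists were chosen with earlier results of these data known. Figures were drawn with matplotlib 3.10.9.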

Additional observations from a re-analysis of the deposited data

Results flagged for a closer look

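Of 46 sets of 5 libraries checked, 7 held a library far from the other 4, and chance flags about 1 in 20 such sets. Control week 19 library 5 was the lowest of its group for Ogdh (177 FPKM, next 246), Dlst (141 FPKM, next 193) and Esrra (86.2 FPKM, next 112). Control week 19 library 2 was the highest for Bdh2 at 0.593 FPKM, with the next at 0.188 FPKM. Recovery week 19 library 3 was the lowest for the transporter gene Slc16a3, at 0.975 FPKM against 1.76 FPKM for the next. Recovery week 19 library 5 had the highest log2 ratio of Bdh1 to Oxct1, -1.59 against -1.89 for the next. Recovery week 19 library 2 had the lowest log2 ratio of Oxct1 to Acat1, 0.483 against 0.714 for the next. None of the 3 enzymes had such a library in its own FPKM in either group of 5.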

How the results depend on the processing

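No paired analysis was possible because the columns carry no replicate letters that link libraries of different groups. The cause of the changes given here was not tested beyond what each alternative leaves out. Without a filter on low values, Bdh1 had -0.87 in HF week 5 against controls and 0.88 in Recovery week 19 against HF week 5 and lost both calls (limma adjusted p = 0.0888 and 0.0826). With only the compared groups in the fit, 5 calls were lost at the same values: Bdh1 (-0.87 and 0.88), Oxct1 against controls (-0.62), and Acat1 in HF week 5 against HF week 3 (1.36) and Recovery week 7 against HF week 5 (0.81). Calling at an unadjusted p under 0.05 added Oxct1 in Recovery week 19 against HF week 5 (0.47), HF week 5 against HF week 3 (0.55) and Recovery week 7 against HF week 5 (0.57). Oxct1 in Recovery week 19 against HF week 5 was also called after median centring (0.53) and without the HF week 3 libraries (0.47).

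Alternatives that leave out libraries by their atrial markers were chosen after seeing the data. Without the 3 libraries above 1000 FPKM, Bdh1 lost its calls (-0.34 and 0.36). Without the 4 above 100 FPKM, Bdh1 (-0.27 and 0.29) and Oxct1 against controls (-0.30) lost theirs, and 5 other pathway genes were called higher in recovery, beside 6.22% of all genes. Leaving out 1 library at a time gave these ranges. HF week 5 against controls: -1.17 to -0.34 for Bdh1 and -0.82 to -0.27 for Oxct1. Recovery week 19 against HF week 5: 0.36 to 1.18 for Bdh1, 0.12 to 0.67 for Oxct1 and 5 to 8 other pathway genes. HF week 3 against controls: -1.73 to -0.73 for Bdh1. HF week 5 against HF week 3: -0.14 to 0.88 for Bdh1 and 0.31 to 0.91 for Oxct1. Recovery week 7 against HF week 5: -0.08 to 0.74 for Bdh1, 0.22 to 0.77 for Oxct1 and 0.61 to 0.94 for Acat1. No called value changed sign. Acat1 kept its calls in HF week 5 against controls and in Recovery week 19 against HF week 5 in all 19 alternatives each (adjusted p up to 0.0117 and 0.0189).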
